A study of Mus musculus with 9 samples.

Results

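Blood-lineage RNA in sorted stromal cells was followed through 4 genes, *Itgb2*, *Spi1*, *Hba-a2* and *Stxbp2*, taken by gene name from the 8329 genes of the expression table. The RNA came from 9 libraries of wild-type C57BL/6J mice, 3 in each of 3 groups. BM-MSCs were bone marrow mesenchymal stem cells at steady state (day 0), P-SSCs were periosteal skeletal stem cells at steady state (day 0), and graft P-SSCs were periosteal skeletal stem cells taken 3 days after whole femurs had been transplanted under the skin of recipient mice. All were sorted by flow cytometry as CD45-Ter119-CD31-CD51+CD200+ cells after red cells had been lysed, that is, against a white cell, a red cell and an endothelial surface marker and for a pair of stromal ones. Marrow was flushed from the bone and periosteum was scraped off and digested, some libraries joined the RNA of more than 1 mouse, and the recipients had not been conditioned and so kept their own blood cells. The labels gave neither age nor sex, and no batch.

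The members mark different parts of the blood system. *Itgb2* encodes the beta chain (CD18) shared by the leukocyte integrins, with which white cells adhere to vessel walls and to each other. *Spi1* encodes PU.1, a transcription factor needed for the myeloid and B cell lineages. *Stxbp2* encodes Munc18-2, a syntaxin-binding protein that granule release in neutrophils, mast cells, platelets and cytotoxic lymphocytes depends on. *Hba-a2* encodes an adult alpha globin chain of haemoglobin, which maturing red cells make in very large amounts. The sort was directed against blood cells, so the question was how much RNA of these genes each library held. *Itgb2*, *Spi1* and *Stxbp2* are called the white cell members below for their known roles. The cells that their RNA came from were not identified.

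Values were FPKM, that is, fragments scaled by the length of the transcript and by the fragments of the library. The library totals recovered from the value steps ran from 16890241 to 21315438 fragments, so that 3 fragments, the limit that a count of 0 allows, stood for 0.0783 to 0.0988 FPKM of *Itgb2* and 0.176 to 0.222 FPKM of *Stxbp2*. Intervals and limits given here cover counting error only, because reads without molecular identifiers are not independent molecules. *Ptprc*, which encodes the CD45 used to gate white cells out, was chosen after its values were seen: it had 16, 74 and 63 fragments in the BM-MSC libraries, 0 in each P-SSC library and 16, 7 and 7 in the graft P-SSC libraries. *Lpl*, a marrow stroma gene, was at 745 ± 178 FPKM in BM-MSCs, 123 ± 35.9 in P-SSCs and 15.1 ± 1.76 in graft P-SSCs (SD, n = 3 each), and *Postn*, a periosteal matrix gene, at 105 ± 17.5, 439 ± 44.1 and 830 ± 48.4 FPKM in the same order.

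*Hba-a2* (ENSMUSG00000069917) lies on the plus strand of chromosome 11, at chr11:32296489-32297298 of GRCm38. Its promoter is shown because alpha globin had the highest level of the members in BM-MSCs and because its paralogue *Hba-a1* has the same sequence there. In the RefSeq promoter window of 300 bases, the 250 bases before the start of transcription (chr11:32296242-32296491, plus strand, GRCm38.p6) read as follows, with the matches to 4 short motifs in capitals.
Hba-a2 promoter: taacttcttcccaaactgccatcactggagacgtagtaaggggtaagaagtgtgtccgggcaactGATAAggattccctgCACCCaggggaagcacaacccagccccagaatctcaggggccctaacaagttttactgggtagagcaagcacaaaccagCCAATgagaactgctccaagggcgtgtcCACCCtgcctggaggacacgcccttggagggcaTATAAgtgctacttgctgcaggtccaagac
A match to GATAA began 185 bases before the start, matches to CACCC 170 and 63 bases before it, a match to CCAAT 91 bases before it and one to TATAA 30 bases before it. GATAA is the core bound by GATA factors and CACCC that bound by KLF factors of red cells. On either strand, GATAA was held by 25.3% of 32544 distinct promoter windows of the same length, CACCC by 57.7%, CCAAT by 37.4% and TATAA by 24.8%, so each match alone is common. The windows of *Hba-a1* and *Hba-a2* were identical in 297 of 297 bases once shifted by 3. Of the 50-base windows of the longest *Hba-a2* transcript, 86.9% also occurred in *Hba-a1*, and 74.5% of the 100-base windows did, so fragments of the 2 alpha globin genes could be split between them and the level of *Hba-a2* is uncertain to that extent. The other members shared at most 1.92% of their 50-base windows with another gene and none of their 100-base windows.

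*Hba-a2* was at 748 FPKM (6624 fragments), 618 FPKM (6094) and 2200.5 FPKM (21040) in BM-MSC replicates 1, 2 and 3. In P-SSCs it was at 2.13, 7.09 and 20.2 FPKM, from 22, 66 and 201 fragments, and in graft P-SSCs at 3.67, 2.78 and 0.531 FPKM, from 34, 31 and 5 fragments. Every BM-MSC library lay far above every periosteal one, with replicate 3 the highest, whereas the P-SSC and graft P-SSC values overlapped. In BM-MSC libraries *Hba-a2* took 0.0392%, 0.0324% and 0.115% of the fragments and ranked 20, 25 and 8 among the genes of the table. The group means were 1189 ± 878, 9.80 ± 9.33 and 2.33 ± 1.62 FPKM for BM-MSCs, P-SSCs and graft P-SSCs (SD, n = 3). It was the only member with fragments in all 9 libraries.

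*Itgb2* (ENSMUSG00000000290; chr10:77530252-77565708, plus strand, GRCm38) was at 9.15, 12.5 and 22.8 FPKM in BM-MSCs, from 278, 423 and 747 fragments. In P-SSCs it was at 0, 2.13 and 0 FPKM, with all 68 fragments in replicate 2. In graft P-SSCs it was at 2.14, 2.53 and 2.54 FPKM, from 68, 97 and 82 fragments. BM-MSCs were highest without overlap, and the graft P-SSC libraries lay close together just above the single P-SSC library that held the transcript. Means were 14.8 ± 7.09, 0.71 ± 1.23 and 2.40 ± 0.229 FPKM (SD, n = 3), so P-SSCs varied more around their mean than graft P-SSCs did.

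*Spi1* (ENSMUSG00000002111; chr2:91082390-91115756, plus strand, GRCm38) was at 6.53, 2.43 and 9.95 FPKM in BM-MSCs, from 99, 41 and 163 fragments. P-SSCs had 0, 2 and 0 fragments, the 2 fragments again in replicate 2 and equal to 0.125 FPKM. Graft P-SSCs were at 1.76, 0.940 and 1.49 FPKM, from 28, 18 and 24 fragments. No library of 1 group reached the range of another, and the order was BM-MSC, graft P-SSC, P-SSC. Means were 6.30 ± 3.77, 0.042 ± 0.072 and 1.40 ± 0.419 FPKM (SD, n = 3).

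*Stxbp2* (ENSMUSG00000004626; chr8:3630955-3643644, plus strand, GRCm38) was at 4.73, 10.3 and 28.3 FPKM in BM-MSCs, from 64, 156 and 413 fragments. It had no fragment in any P-SSC library. Graft P-SSCs were at 1.62, 1.23 and 1.74 FPKM, from 23, 21 and 25 fragments. As with *Spi1*, the 3 groups did not overlap, and the BM-MSC libraries spread widest, 5.97-fold between replicates 1 and 3. The RefSeq promoter window of *Stxbp2* held none of these motifs but a single CACCC on the minus strand, 24 bases before the start. The RefSeq start of *Stxbp2* differs from the gene start given above and lies downstream of it, so the match is inside the gene as annotated by GENCODE, and the window is not printed. GAGGAA, a core of PU.1 sites, occurred on neither strand of either window, against 28.1% of all windows. *Itgb2* and *Spi1* had no entry among these promoters.

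**Figure D1:**
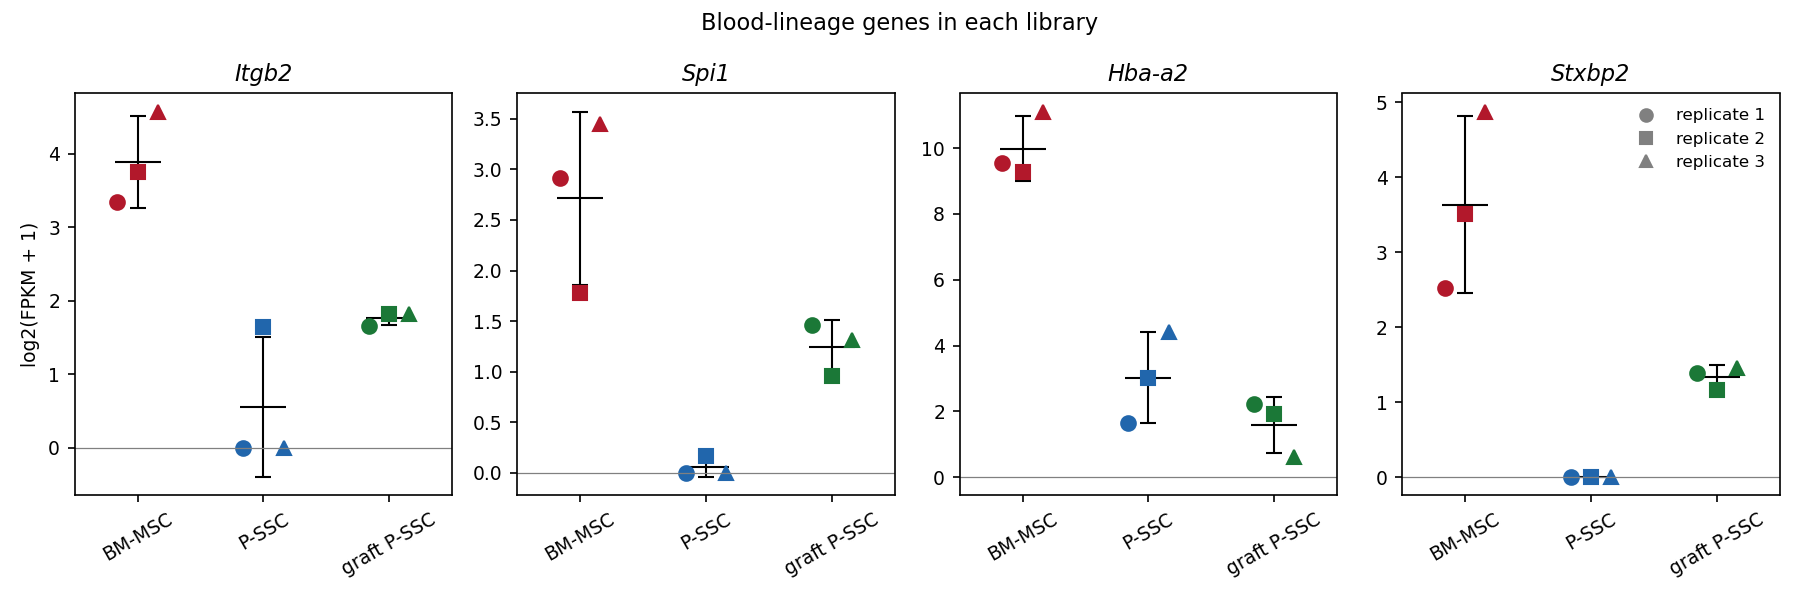
Level of each member in each library as log2(FPKM + 1), with a panel and a vertical scale for each gene and the groups on the horizontal axis. Symbols mark replicates 1, 2 and 3, and black bars the mean and SD (n = 3). All 4 genes were highest in BM-MSCs, with replicate 3 on top, *Stxbp2* sat at 0 in all P-SSC libraries, and the P-SSC and graft P-SSC values of *Hba-a2* overlapped.

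Levels of different members can be compared only as far as the length behind them holds. The table had been divided by the mean length of a gene's annotated transcripts, which for *Stxbp2*, with 15 transcripts, was 801 bases against 2908 for the longest. With the length of the longest transcript, the BM-MSC means became 1125 FPKM for *Hba-a2*, 8.96 for *Itgb2*, 3.98 for *Stxbp2* and 2.78 for *Spi1*. Alpha globin stood far above the white cell members in BM-MSCs on both scales, and the means of *Itgb2* and *Stxbp2*, 14.8 and 14.4 FPKM as deposited, were alike only on the deposited scale.

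Steady-state P-SSCs were compared with BM-MSCs to see how the periosteal cells differ from those of the marrow. All 4 members were lower in P-SSCs, *Hba-a2* 121-fold and *Itgb2* 20.9-fold by group means. *Stxbp2* was at least 72.5-fold lower when 3 fragments were set for each empty library. These sizes rested on single libraries: *Hba-a2* was 69.7-fold lower without BM-MSC replicate 3 and 258-fold without P-SSC replicate 3, and *Stxbp2* at least 37.9-fold without BM-MSC replicate 3. *Itgb2* was at least 172-fold lower without P-SSC replicate 2 and 13.9-fold without either of the others, and *Spi1* at least 36.5-fold lower without P-SSC replicate 2. For *Spi1* the ratio of fragments, 303 to 2, was 159 after scaling for depth, with an exact 95% interval of 43.6 to 1316. On the log2(FPKM + 1) scale, which understates the change of low genes, the differences were -6.95 (SE 0.73) for *Hba-a2*, -3.63 (0.50) for *Stxbp2*, -3.34 (0.49) for *Itgb2* and -2.66 (0.40) for *Spi1*, against a median of -0.06 over all genes. The adjusted p values of limma (Benjamini-Hochberg over 1948 genes) were 7.95e-05, 0.00053, 0.000791 and 0.00088. In this comparison 14.4% of the genes tested were called lower and 19.2% were lower without overlap between groups. *Spi1* reached the minimum for testing, 1 FPKM in 3 libraries, only through BM-MSCs, and so had to differ. These bulk libraries do not show which cells the RNA came from. The number of such cells, the RNA in each and the way marrow and periosteum were prepared cannot be told apart.

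The same comparison within the blood genes was read from lists of genes known for each lineage, of which the table held only a part, and is to be read against the 14.4% of all genes called lower. Of the 5 tested red cell genes all were called lower in P-SSCs. Beside *Hba-a2* they were *Kel*, a blood group protease of red cells (16.3 ± 15.3 against 0 FPKM, at least 92-fold and at least 43.2-fold without BM-MSC replicate 3), *Nfe2*, a transcription factor of red cells and megakaryocytes (19.4 ± 11.1 against 0, at least 144-fold), *Add2*, of the red cell skeleton (4.95 ± 3.34 against 0.496 ± 0.439), and *Bpgm*, which makes 2,3-bisphosphoglycerate (42.0 ± 17.8 against 14.7 ± 0.716). *Bpgm* was the only gene of the list above 10 FPKM in every library. Of the 5 red cell genes, 3 (*Kel*, *Nfe2* and *Add2*) were tested only through BM-MSCs, the higher group. The same held for 2 of the 5 integrin genes tested, so these counts were in part fixed by the filter. Among the integrin genes, 4 of 5 tested were called lower: *Itgb2*, *Fermt3*, which encodes the integrin activator kindlin-3 of blood cells (36.9-fold, 61.7-fold without P-SSC replicate 3), *Rasgrp2*, an activator of Rap GTPases in platelets and neutrophils (19.9-fold), and *Skap2*, an adaptor in integrin signalling (3.19-fold).

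Of 5 tested pan-leukocyte genes 4 were called lower, among them *Itgb2* and *Fermt3* again and *Cybb*, the catalytic subunit of the phagocyte oxidase. *Cybb* was at 31.7, 25.8 and 79.9 FPKM in BM-MSCs and at 0 in every P-SSC library. Of 4 tested neutrophil genes 3 were lower, and *Lyz2*, the lysozyme of myeloid cells, fell 9.39-fold (adjusted p = 0.00807). Only 2 of 8 monocyte and macrophage genes were called lower, *Fcgr3*, an immunoglobulin receptor (12.8-fold, with all but 1 of its P-SSC fragments in replicate 2), and *F10*, coagulation factor X, named after its values were seen. The fold of *Fcgr3* was 349 without P-SSC replicate 2, resting on 1 fragment, and 8.51 without P-SSC replicate 3. *Gngt2*, a G protein gamma subunit, was called higher in P-SSCs (6.21-fold), as 9.8% of all genes tested were. Over all blood lists together, 19 of 34 tested genes were called lower and 1 higher once the members were left out, with a median of -1.53, beside 14.4% and 9.8% of all genes tested. Of the 38 with members, 16 would have missed the minimum for testing without the BM-MSC libraries, against 140 of the 1948 genes. The counts of genes called thus describe the lists and do not set them apart.

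Graft P-SSCs were compared with steady-state P-SSCs to see what changed within 3 days of transplantation. The 3 white cell members had higher values in every graft library than in any P-SSC library, while *Hba-a2* had a lower mean with overlapping values, 4.21-fold lower in all and 1.98-fold without P-SSC replicate 3. By group means *Itgb2* was 3.39-fold higher and *Stxbp2* at least 7.68-fold higher, and *Spi1* had 70 fragments against 2, a ratio of 34.7 with an exact 95% interval of 9.26 to 292. The differences were 1.22 (SE 0.49) for *Itgb2*, 1.19 (0.40) for *Spi1*, 1.33 (0.50) for *Stxbp2* and -1.44 (0.73) for *Hba-a2* on the log2(FPKM + 1) scale, against a median of 0.26 over all genes. The adjusted p values of limma were 0.0865, 0.0447, 0.0687 and 0.159, so that only *Spi1* passed the threshold of 0.05, and its call was lost without any 1 library other than BM-MSC replicate 2 or 3 (adjusted p up to 0.147). Here 22.6% of all genes tested were called higher, 11.5% lower, and 31.5% were higher without overlap, so 3 members without overlap out of 4 is to be read against that share. For *Itgb2* the gap was 2.14 against 2.13 FPKM, from 68 fragments each, and median of ratios scaling turned it round, to 1.82 in graft P-SSC replicate 1 against 2.57 in P-SSC replicate 2.

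Without P-SSC replicate 2, which held all the *Itgb2* fragments of its group, *Itgb2* differed by 1.76 (adjusted p = 0.0104) and was at least 27.9-fold higher, and *Spi1* at least 8.10-fold. For *Stxbp2* the adjusted p was 0.0229 without BM-MSC replicate 1 and 0.00909 without BM-MSC replicate 3, which changed the estimate of the spread and not the difference of 1.33.

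Other blood genes were called in both directions in the graft, 7 of 34 tested higher and 3 lower without the members, against 22.6% and 11.5% of all genes tested, so their shares were no larger than the background. *Runx1*, a transcription factor of blood stem cells that cells of the skeletal lineage also express, was at 0.585, 0.651 and 2.82 FPKM in P-SSCs and at 25.2, 19.8 and 20.6 in graft P-SSCs, a 16.2-fold rise (adjusted p = 0.00016), 35.4-fold without P-SSC replicate 3, and stood above BM-MSCs as well (2.54-fold, adjusted p = 0.0244). *Csf1r*, the receptor that monocytes and macrophages need to survive, rose from 0.497 ± 0.303 to 5.94 ± 0.367 FPKM (adjusted p = 0.00431). *Stx11*, a syntaxin bound by Munc18-2, rose 9.72-fold to 12.5 ± 1.51 FPKM (adjusted p = 0.0012). *Skap2* rose 2.22-fold (adjusted p = 0.0137). *Adgre1*, which encodes the macrophage antigen F4/80 and was named after its values were seen, had 78, 31 and 64 fragments in graft P-SSCs and 0 in each P-SSC library (adjusted p = 0.0413). *Gngt2*, of the same monocyte list, fell 2.87-fold, from 50.8 ± 23.5 to 17.7 ± 2.32 FPKM (adjusted p = 0.0212), and the other genes called lower were *Ighm* and *Cst3*. Of the 5 red cell genes limma called 0, with 0 at an unadjusted p under 0.05, and voom on recovered fragments also called 0. This count says little, because 3 of the 5 were tested only through BM-MSCs, *Kel* had no fragment in any periosteal library, and *Nfe2* had 5 in 1 graft P-SSC library and none in the other periosteal ones.

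Against BM-MSCs, graft P-SSCs remained lower for all 4 members. *Hba-a2* was 511-fold lower by group means, *Stxbp2* 9.44-fold, *Itgb2* 6.16-fold and *Spi1* 4.51-fold. Without BM-MSC replicate 3, *Hba-a2* was 294-fold and *Stxbp2* 4.93-fold lower. The differences were -8.39 (SE 0.73), -2.30 (0.50), -2.13 (0.49) and -1.47 (0.40) on the log2(FPKM + 1) scale, with adjusted p values of limma of 2.08e-05, 0.00585, 0.00782 and 0.0163, against a median of 0.28. Of all genes, 16.2% were called lower, 25.7% higher, and 24% were lower without overlap. *Spi1*, at 1 FPKM in only 2 graft P-SSC libraries, was again tested only through BM-MSCs, the higher group. This comparison shares its libraries with the others, and the values are set side by side only. The call of *Spi1* was lost without BM-MSC replicate 1 (-1.37, adjusted p = 0.0508) or graft P-SSC replicate 2 (-1.32, adjusted p = 0.0715). With voom on recovered fragments, added after the data were seen, the adjusted p values were 0.0756 for *Itgb2* and 0.0845 for *Spi1*.

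**Figure D2:**
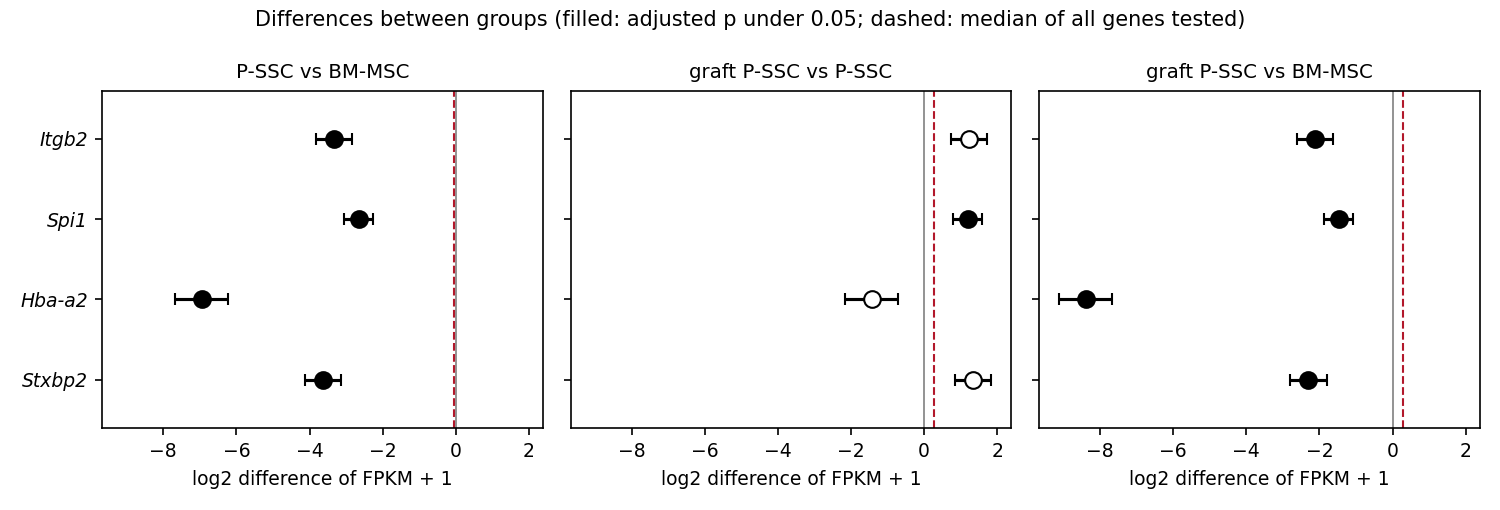
Difference between groups for each member on the log2(FPKM + 1) scale (horizontal axis), with a panel for each comparison. Points are limma estimates with their standard error, filled where the adjusted p was under 0.05, and the dashed line is the median of the 1948 genes tested. All members lay to the left in both comparisons with BM-MSCs, and only *Spi1* is filled between graft P-SSCs and P-SSCs.

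Within a library, the members did not stand in a fixed proportion. In BM-MSCs there were 81.8, 49.4 and 96.6 FPKM of *Hba-a2* for each FPKM of *Itgb2*. The only P-SSC library with *Itgb2* had 3.33, and the graft P-SSC libraries had 1.72, 1.10 and 0.209. The ratio of *Hba-a2* to *Itgb2* was thus 99.7-fold lower in graft P-SSCs than in BM-MSCs by geometric means, without overlap. It was 53.3-fold lower without graft P-SSC replicate 3 and 153-fold without graft P-SSC replicate 1 (exact permutation test, two-sided p = 0.1, the smallest that 3 against 3 libraries allow). The ratio covers a single pair of genes. Graft P-SSCs were 6.16-fold below BM-MSCs for *Itgb2*, and among other red cell genes 2.32-fold for *Bpgm* and 5.87-fold for *Add2*. For *Nfe2* they were 243-fold below, and for *Kel* at least 92.2-fold. Among the white cell members, *Stxbp2* stood at 0.517 to 1.24 of the *Itgb2* level in BM-MSCs and at 0.486 to 0.759 in graft P-SSCs (exact permutation p = 0.4), and *Spi1* at 0.194 to 0.713 and 0.372 to 0.824 (exact permutation p = 0.6). The P-SSC library with *Itgb2* lay outside these ranges, with no *Stxbp2* and *Spi1* at 0.059 of the *Itgb2* level. Adjusted over the 3 ratios, these p values were 0.3, 0.6 and 0.6.

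The BM-MSC libraries themselves differed in which blood transcripts they held. Replicate 3 was highest for all 4 members, by 2.49-fold over the lowest library for *Itgb2*, 4.10-fold for *Spi1*, 3.56-fold for *Hba-a2* and 5.97-fold for *Stxbp2*. The red cell genes followed the same library, with *Kel* at 4.26, 11.0 and 33.5 FPKM and *Nfe2* at 10.3, 16.2 and 31.8 FPKM in replicates 1, 2 and 3. Replicate 1 instead held *Mpo*, the peroxidase of neutrophil granules made by their precursors, at 292 FPKM (6412 fragments), while replicates 2 and 3 had no fragment of it. *Ctsg*, a protease packed in the same granules and named after its values were seen, was at 27.2, 2.40 and 0 FPKM. Other granulocyte genes did not share that order. *Fcnb*, which encodes the ficolin B of granulocyte precursors, was at 22.5, 8.55 and 52.2 FPKM, and *Orm1*, an acute phase protein gene, at 9.40, 13.0 and 11.0 FPKM. *Lyz2* was lowest in replicate 1, with 143, 540 and 608 FPKM, and so was *Cxcr2*, a chemokine receptor of mature neutrophils, also named after its values were seen, with 28, 46 and 236 fragments. With 1 library each, these differences have no replicate check.

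Over the 34 blood genes tested other than members, BM-MSC replicate 3 was the highest library of its group for 15 (44.1%), replicate 1 for 12 and replicate 2 for 7. Over all genes tested, replicate 3 was highest for 36.8%, so it did not hold the highest value across blood genes in general. Pan-leukocyte genes, 9 in the table with *Itgb2* among them, summed to 66.5 FPKM in replicate 1, 74.2 in replicate 2 and 159 in replicate 3. *Cybb* alone made up 31.7, 25.8 and 79.9 FPKM of these sums. *Ptprc*, *Dock2* and *Tnfaip8l2* were not highest in replicate 3, where *Dock2* and *Tnfaip8l2* had no fragment, whereas the other genes of the list were. Monocyte and macrophage genes summed to 41.3, 32.2 and 23.9 FPKM, with the lowest sum in replicate 3.

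**Figure D3:**
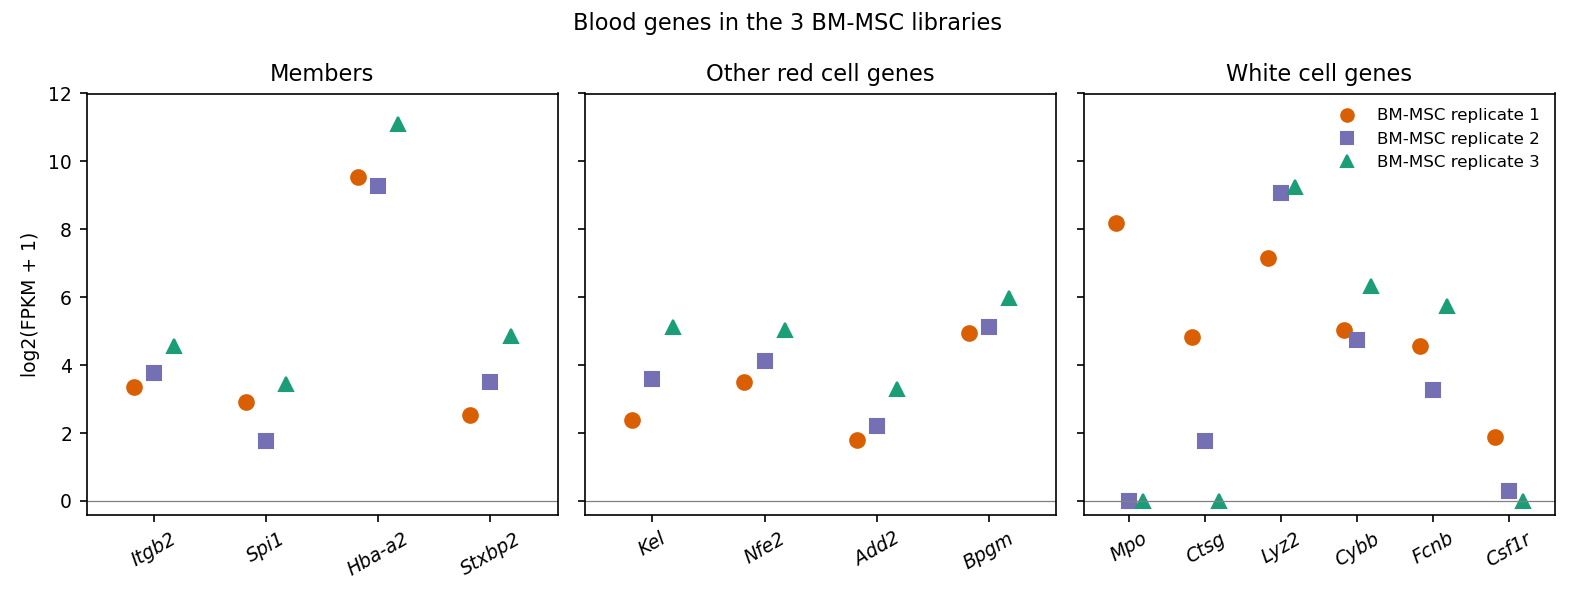
Blood genes in the 3 BM-MSC libraries as log2(FPKM + 1), with members in the left panel, other red cell genes in the middle and white cell genes on the right. Symbols mark the replicates. Replicate 3 is on top for every gene of the left and middle panels, whereas *Mpo*, *Ctsg* and *Csf1r* were highest in replicate 1 and *Mpo* was at 0 in the others.

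Among steady-state P-SSC libraries the traces were unlike. Replicate 2 held the *Itgb2* and *Spi1* fragments of its group, and also *Fcgr3* (36 fragments, against 1 and 0) and *Icam2*, a ligand of the leukocyte integrins (28 fragments, against 0 and 0). It had no *Ptprc*, *Cybb* or *Stxbp2*. *Hba-a2* in contrast was highest in replicate 3 (201 fragments), where *Itgb2*, *Spi1* and *Stxbp2* were all at 0. Replicate 2 was labelled P2P5, against P1 and P4 for the others of its group, and BM-MSC replicate 2 was labelled BM2BM4. Whether such joined labels mark the libraries with RNA of 2 mice was not stated, and the part of pooling in these traces was not tested. The graft P-SSC libraries were more even, with 52 to 56 of 73 blood genes above 0 in each, against 27 to 34 in P-SSCs and 45 to 53 in BM-MSCs. Over all genes of the table, 2771 to 2829 were above 0 in graft P-SSCs, 2231 to 2466 in P-SSCs and 2304 to 2521 in BM-MSCs, so that more genes of any kind were seen in the graft libraries.

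**Figure D4:**
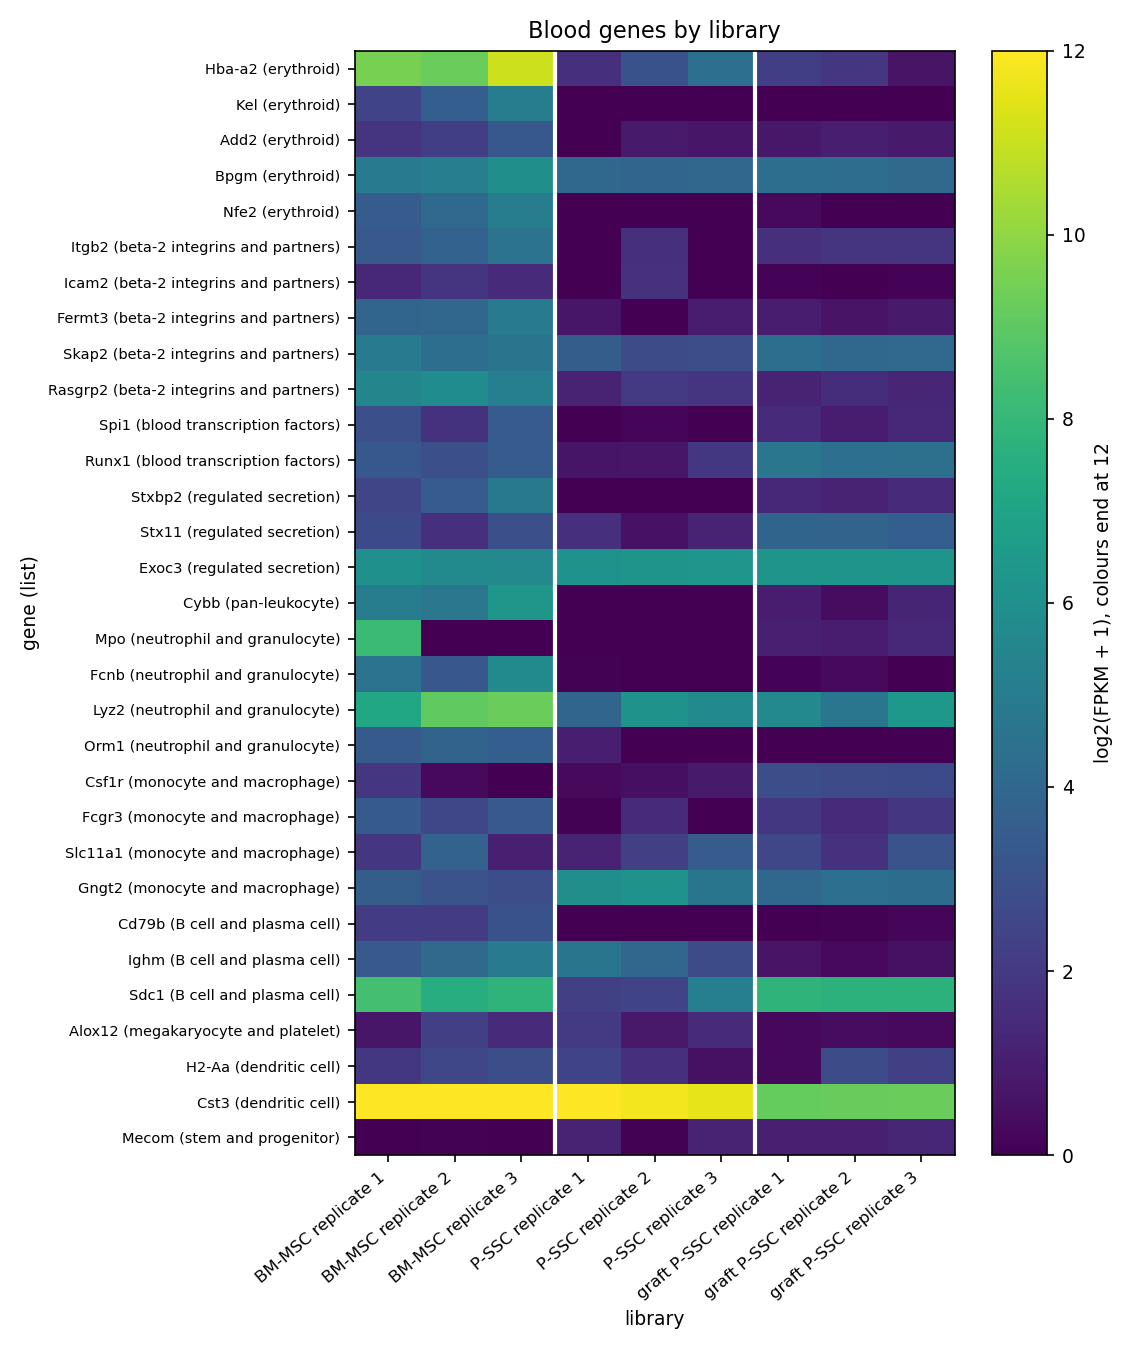
A set of 31 tested blood genes (rows, with their list) in the 9 libraries (columns), coloured by log2(FPKM + 1) up to 12. *Hba-a2*, *Nfe2* and *Kel* are each brightest in the first 3 columns, *Mpo* stands out in BM-MSC replicate 1, and *Runx1*, *Stx11* and *Csf1r* are brighter in graft P-SSCs than in P-SSCs.

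The table held few markers of other tissues, at low levels, too few to tell whether they followed the members across groups. Endothelial genes, 3 of 26 in the table, summed to 0 in BM-MSCs and to at most 1.21 FPKM elsewhere. Skeletal muscle genes, 3 of 30 in the table, summed to 0.055 to 4.17 FPKM in BM-MSCs, up to 12.2 in P-SSCs and 0.070 to 0.810 in graft P-SSCs. In P-SSCs the muscle sum was highest in replicate 2, the library with the *Itgb2* fragments, at 12.2 FPKM, with replicate 3 at 5.71 and replicate 1 lower still, and the part of that tissue in these fragments was not tested. Of the blood lists, T and NK cell genes, 8 of 38 in the table, summed to at most 2.62 FPKM in any library.

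The genes most like each member over the 9 libraries were picked by Pearson's r of log2(FPKM + 1), a description that the gap between BM-MSCs and the rest dominates. *Itgb2* was followed most closely by *Mterf2* (r = 0.954), a mitochondrial transcription termination factor, *Fcgr3* (0.950), *Pcdhb7* (0.949), a protocadherin, *Sdsl* (0.945) and *Stxbp2* (0.941). *Spi1* was followed by *Prag1* (0.970), *AI467606* (0.967), *Jak3* (0.958), a kinase of blood cell cytokine receptors, *Zfp513* (0.942) and *Fcgr3* (0.937). *Stxbp2* was closest to *Sdsl* (0.996), with 3.85, 7.82 and 13.7 FPKM in BM-MSCs, none in P-SSCs and 1.51, 1.03 and 1.33 in graft P-SSCs. It was next closest to *Cyp4f18* (0.992), a lipid hydroxylase of neutrophils, then *Bpgm* (0.972), *Jak3* (0.966) and *Prag1* (0.960).

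*Hba-a2* had other neighbours, among them *Dlx6* (0.978), a homeobox gene of the skeleton, *A930005H10Rik* (0.974), *Rasa3* (0.969), a Ras GTPase regulator, and *Hist1h2bc* (0.968). *Rasa3* was at 326, 308 and 399 FPKM in BM-MSCs, at 27.3 to 48.0 in P-SSCs and at 26.2 to 35.2 in graft P-SSCs. None of these genes was among the neighbours of the white cell members. Between members r was 0.907 for *Itgb2* and *Spi1*, 0.941 for *Itgb2* and *Stxbp2* and 0.921 for *Spi1* and *Stxbp2*, but 0.769 to 0.817 with *Hba-a2*.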

How the data were processed

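RNA from cells sorted by flow cytometry was sequenced by the authors on an Illumina NovaSeq. Per the submitters' processing notes, CASAVA, fastp, STAR 2.6.1d and featureCounts 1.5.0-p3 were used, and per the study's methods STAR aligned the reads to GRCm38. The strand setting of the counting was not given in the sources used here, so reads of a gene and of an antisense partner may not be told apart, although the members overlap no annotated gene. The deposited values are FPKM, which the authors had not rounded, and for their own comparisons they used DESeq2.

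Multiplied by the integer part of the mean transcript length in GENCODE M21 and by the estimated library total, 95.3% of 22664 values above 0 came out as whole fragments (within 0.05). The 1948 genes that reached 1 FPKM in at least 3 of the 9 libraries were tested on the log2(FPKM + 1) scale with limma 3.58.1 (lmFit, contrasts, eBayes with trend, R 4.3.3), in 1 fit over all 9 libraries. A call needed a p under 0.05 after Benjamini-Hochberg adjustment. The script was tested on simulated data. Other values were computed in Python 3.11.15. Replicates held RNA of different mice.

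The members and gene lists were chosen with earlier results of these data known. Genes named besides the members were, from each blood list, at most 4 with the highest mean FPKM, from each stromal, endothelial and muscle list at most 3, and the 5 most like each member by Pearson's r, of which some are not reported here. Alternatives were other pseudocounts, filters, scalings, lengths and libraries, a replicate block and voom. Promoters came from RefSeq (GRCm38.p6), with 2 of 4 members matched.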

Additional observations from a re-analysis of the deposited data

How the results depend on the processing

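The 4 members under 21 settings gave 84 values a comparison: direction and call were kept by 84 for P-SSCs against BM-MSCs, 77 for graft P-SSCs against BM-MSCs and 64 for graft P-SSCs against P-SSCs, and none was reversed. The cause of the changes below was not tested. For graft P-SSCs against P-SSCs, *Spi1* lost its call with no filter (1.19), median of ratios scaling (1.06, adjusted p = 0.0552), quantile normalization (0.80, adjusted p = 0.139), the replicate block (1.19, adjusted p = 0.0515) and, added later, the length of the longest transcript (0.66). *Stxbp2* was called with a pseudocount of 0.1 (4.01) or 0.01 (7.25), in the 6 libraries alone (1.33) and with voom on recovered fragments (5.54), also added later, and *Itgb2* with voom (4.99). For graft P-SSCs against BM-MSCs, *Itgb2* lost its call with a pseudocount of 0.1 (-2.47) or 0.01 (-2.52) and with voom (-2.52), and *Spi1* with 0.01 (-1.99) and voom (-1.97). With libraries left out, graft P-SSCs against P-SSCs gave 1.08 to 1.33 for *Spi1*, 1.27 to 1.42 for *Stxbp2* and 0.94 to 1.76 for *Itgb2*. There 428 to 871 genes were called, where the full set gave 665. Graft P-SSCs against BM-MSCs gave -1.94 to -1.10 for *Spi1*, with 523 to 1032 genes called, where the full set gave 816. The lower counts came without graft P-SSC replicates 1, 2 or 3 (428, 428 and 441) and, against BM-MSCs, without replicates 1 or 2 (533 and 523).

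Scaling moved the median of all genes between graft P-SSCs and P-SSCs from 0.26 to 0.02 (median of ratios) or -0.08 (quantile), and the genes called higher and lower from 441 and 224 to 312 and 302 or 312 and 355. Against BM-MSCs they went from 501 and 315 to 388 and 364 or 387 and 405. The replicate numbers of the titles did not pair the libraries (r of deviations -0.43 to 0.13 over 9 pairs, mean -0.081 against 0.037 for other pairs), and the block, with 621 genes called between graft P-SSCs and P-SSCs, ended no member's call other than that of *Spi1*. Groups of 3 libraries cannot give an exact p under 0.1, and values of 1 to 5 fragments carry wide counting error.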

Other observations

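Of the B cell and plasma cell genes, 3 were tested. *Cd79b*, a signalling chain of the B cell receptor, was at 3.34, 3.20 and 7.18 FPKM in BM-MSCs, with no fragment in P-SSCs and 0, 1 and 4 fragments in graft P-SSCs, and was tested only because BM-MSCs, the high group, reached the minimum. *Ighm*, the heavy chain of IgM, was at 9.21, 16.6 and 31.1 FPKM in BM-MSCs and at 24.6, 14.4 and 5.71 in P-SSCs, with overlap, and it fell 35.6-fold to 0.419 ± 0.169 FPKM in graft P-SSCs (limma, adjusted p = 0.00139). *Sdc1*, a surface proteoglycan of plasma cells that other cells also make, was at 245 ± 82.0 FPKM in BM-MSCs, 14.4 ± 17.8 in P-SSCs and 214 ± 10.1 in graft P-SSCs, and it was called lower in P-SSCs than in BM-MSCs and higher in graft P-SSCs than in P-SSCs (adjusted p = 0.000573 and 0.000712).

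Of the 3 dendritic cell genes in the table, *Cst3*, the protease inhibitor cystatin C that most cells secrete, fell from 12069 ± 1525 FPKM in BM-MSCs to 3574 ± 565 in P-SSCs and 592 ± 25.7 in graft P-SSCs (adjusted p = 3.26e-05 and 5.46e-06 for the steps from group to group). Of the blood stem and progenitor genes, *Mecom*, a transcription factor of blood stem cells, had 0, 2 and 0 fragments in BM-MSCs, 65, 3 and 62 in P-SSCs and 51, 61 and 72 in graft P-SSCs, and was called higher in graft P-SSCs than in BM-MSCs (adjusted p = 0.0138). *Gzmb*, a protease of cytotoxic lymphocytes, had 42 fragments in graft P-SSC replicate 3 and 0 in each of the other libraries. *Mx1*, an interferon-induced gene on the periosteal list, had 37, 37 and 22 fragments in graft P-SSCs and 0 in each steady-state library.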
